A study of Mus musculus with 6 samples.

Results

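The miR-181 family was followed in small RNA from mouse brain cortex as 7 mature products, 4 from the 5p arm and 3 from the 3p arm of its hairpins, chosen by name among the 1182 rows of the deposited table. All 7 were in the table and all 7 passed the filter on low counts, which kept 541 miRNAs. The libraries came from cortex of adult males, untreated in both groups. One group carried Fmr1 KO (3 libraries) and the other was Fmr1 WT (3 libraries). The exact age, the strain and the kind of Fmr1 allele are not stated in the labels. Fmr1 is X-linked and encodes FMRP, an RNA-binding protein that restrains translation in neurons, and the comparison asks how cortical miRNAs differ without it. Small RNA counts do not report the Fmr1 transcript, so the genotype labels could not be checked here.

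A microRNA (miRNA) is cut from a hairpin whose 5p and 3p arms each give a short RNA. The arm that is loaded into Argonaute is the guide, and its bases 2 to 8, the seed, pair with messenger RNAs that are then repressed. In the miR-181 family the 5p arm is the usual guide. In mouse T cells miR-181a lowers several phosphatases and thereby raises the sensitivity of antigen receptor signalling, and in rodent neurons it is known to repress an AMPA receptor subunit.

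The mature sequences below, from RefSeq on GRCm38.p6, show why the 5p products count as a single family and why reads of the members are hard to separate. They are written 5′ to 3′ with the seed in capitals.
mmu-miR-181a-5p: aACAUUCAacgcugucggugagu
mmu-miR-181b-5p: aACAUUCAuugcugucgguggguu
mmu-miR-181c-5p: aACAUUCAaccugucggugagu
mmu-miR-181d-5p: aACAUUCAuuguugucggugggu
mmu-miR-181a-1-3p: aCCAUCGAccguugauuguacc
mmu-miR-181a-2-3p: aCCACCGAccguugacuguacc
mmu-miR-181c-3p: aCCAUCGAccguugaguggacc

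All 4 of the 5p products carry the seed ACAUUCA, and no other mature miRNA in the RefSeq table does. The 3p products fall into 2 seeds, CCAUCGA for miR-181a-1-3p and miR-181c-3p, and CCACCGA for miR-181a-2-3p. Counting positions from 1 at the 5′ end and giving the first-named base first, miR-181b-5p and miR-181d-5p differ by C12U and by the last base of miR-181b-5p. Against miR-181a-5p, miR-181b-5p has A9U, C10U and A21G besides its extra last base, and miR-181c-5p is 1 deletion away. The 3p arms of miR-181a-1 and miR-181a-2 differ by U5C and U16C, those of miR-181a-1 and miR-181c by U16G and U19G. With differences this small, a truncated or misread molecule of one member can be counted for another. The mismatches allowed in the authors' counting are not stated in the labels or headers, so the split between members is uncertain. This bears most on miR-181c-5p, which lies closest to the far more abundant miR-181a-5p.

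The 6 hairpins sit in 3 clusters. Mir181a-1 (chr1:137966455-137966541) and Mir181b-1 (chr1:137966639-137966718) are 97 bases apart on the plus strand, in an intron of the noncoding gene Gm4258 and overlapping an exon of the long noncoding RNA gene A430106G13Rik. Mir181a-2 (chr2:38852735-38852810) and Mir181b-2 (chr2:38853830-38853918) are 1019 bases apart, opposite an intron of Nr6a1, which encodes an orphan nuclear receptor. Mir181d (chr8:84178716-84178787) and Mir181c (chr8:84178873-84178961) are 85 bases apart on the minus strand in an intron of Nanos3, a gene of germ cell development. The annotation is GENCODE M21.

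The Mir181a-1 and Mir181a-2 hairpins are shown because their 5p arms are the same while loop and 3p arm are not. Here the capitals mark the mature products.
Mir181a-1: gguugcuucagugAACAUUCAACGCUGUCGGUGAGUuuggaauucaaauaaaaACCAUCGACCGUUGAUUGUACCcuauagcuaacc
Mir181a-2: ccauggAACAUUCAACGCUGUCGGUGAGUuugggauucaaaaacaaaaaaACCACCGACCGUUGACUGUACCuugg
Reads of miR-181a-5p, and likewise of miR-181b-5p, therefore cannot be assigned to chromosome 1 or chromosome 2. The 3p arm keeps that information for miR-181a. Only the chromosome 8 cluster has guides of its own.

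The KO libraries held 11182888 to 14385332 miRNA reads and the WT libraries 13225790 to 15733876. Values are library-scaled read counts (CPM) after TMM scaling, with no length term, since the products are 22 to 24 bases long and a read covers a whole molecule. The TMM factors were 1.09, 0.827 and 1.08 in KO replicates 1 to 3, against 1.03, 1.03 and 0.966 in WT replicates 1 to 3. Orders of libraries in CPM can therefore differ from those by library totals. Tissue markers were those of brain in every library. The 7 neuronal miRNAs summed to 119984 to 141165 CPM in KO and 130757 to 143709 CPM in WT, and none of them was at 0. The 7 miRNAs of microglia and leukocytes, cells in which miR-181 is also known, summed to 297.8 to 458.7 CPM in KO and 257.0 to 272.8 CPM in WT, with higher values in KO for all 6 that were tested, 0 of them past an adjusted p of 0.05. In 5 miRNAs of epithelium and olfactory neurons the sums were 15.7 CPM in KO replicate 1, 904.3 in KO replicate 2 and 970.1 in KO replicate 3, against 83.9 to 290.0 CPM in WT. In 5 miRNAs of choroid plexus and multiciliated cells they were 1005 and 1018 CPM in KO replicates 1 and 2 and 2094 CPM in KO replicate 3, against 959.7 to 1029 CPM in WT. The 3 oligodendrocyte miRNAs summed to 558.2 to 792.3 CPM in KO and 769.3 to 880.0 CPM in WT, the 2 of endothelium to 7656 to 8063 CPM in KO and 7050 to 7626 CPM in WT, the 2 of mural cells to 30420 to 36898 CPM in KO and 28173 to 34940 CPM in WT, and the 3 of erythroid cells to 79.4 to 119.3 CPM in KO and 74.7 to 82.2 CPM in WT. Values were also higher in KO for every tested marker of endothelium, mural cells, choroid plexus and multiciliated cells, erythroid cells, and epithelium and olfactory neurons. Of the neuronal miRNAs 4 were higher and 3 lower, and of the oligodendrocyte miRNAs 1 was higher and 2 lower. Over all 541 tested miRNAs 284 were higher. No tested marker of these lists passed an adjusted p of 0.05 in edgeR. The part of these differences in the miR-181 values was not tested.

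The 4 guides together made up 0.505% ± 0.0466 of KO reads and 0.699% ± 0.0473 of WT reads (mean ± SD of 3 libraries). Added up, they reached 4765, 5479 and 4999 CPM in the KO libraries, against 6462, 7336 and 7038 CPM in the WT libraries. Every KO library lay below every WT library. As shares of reads the KO libraries had 0.520%, 0.453% and 0.542%, against 0.665%, 0.753% and 0.680% in the WT libraries. KO replicate 2 was thus highest of the KO libraries after TMM scaling and lowest before it. On average miR-181a-5p made up 68.9% of the guide reads in KO and 70.0% in WT, so the sum largely repeats that product. Of 401 seed groups formed by the 470 tested miRNAs with a RefSeq sequence, the miR-181 guides ranked 20 to 24 by summed level in KO and 16 to 19 in WT. The sum was not tested between genotypes, and none of the 4 guides passed an adjusted p of 0.05 in edgeR. If the family is lower in KO, bulk cortex does not tell fewer cells that hold it from less of it per cell.

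**Figure D1:**
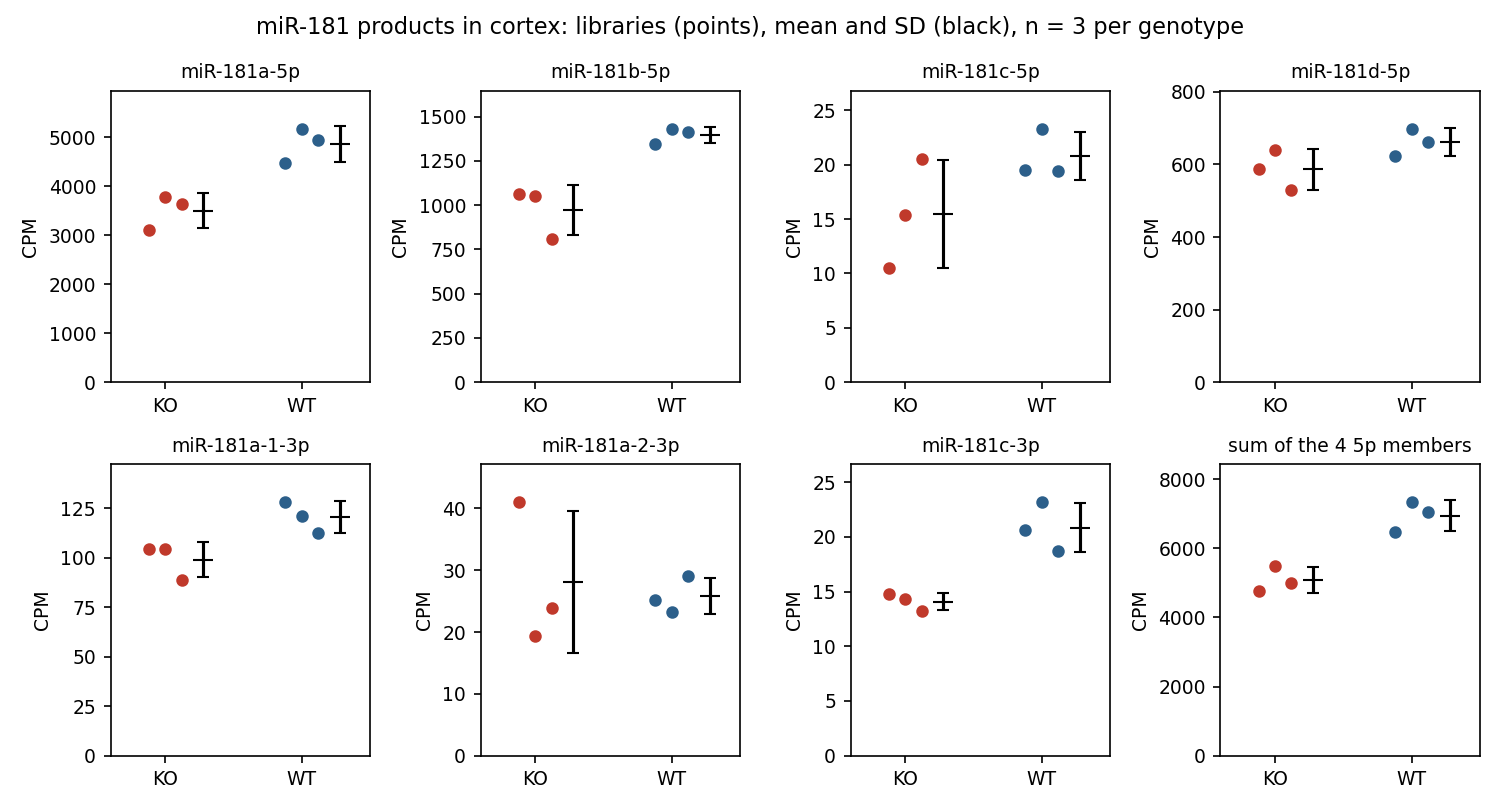
Level in CPM of each of the 7 miR-181 products and of the 4 guides summed, in KO (left of each panel) and WT. Points are libraries and black marks are mean and SD (n = 3 each). For miR-181a-5p, miR-181b-5p, miR-181a-1-3p and miR-181c-3p the genotypes do not overlap, while for miR-181a-2-3p 1 KO library stands at 41.0 CPM above all others. Without TMM scaling the genotypes overlap for miR-181a-1-3p.

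Of the 7 products, 6 had lower values in KO, as did 47.5% of all tested miRNAs, and 1, miR-181a-2-3p, had a higher value. None passed the edgeR quasi-likelihood test after Benjamini-Hochberg adjustment over the 541 miRNAs, where 0 miRNAs of any kind passed (0% called, smallest adjusted p = 0.694, DESeq2 also 0). Without adjustment, 35 miRNAs (6.47%) had an edgeR p under 0.05, and in DESeq2, run without the count filter, 40 of all 1182 rows did. Of the 7 products, 3 (miR-181a-5p, miR-181b-5p and miR-181c-3p) were at an unadjusted p under 0.05 in the lower direction, which 3.14% of all tested miRNAs were. In 4 of the 7, every KO library lay below every WT library after TMM scaling, as in 10.5% of all tested miRNAs. For miR-181a-1-3p, 1 of the 4, the groups overlapped by library totals. Groups lay apart in this way for 28 of the 147 tested miRNAs with a mean of at least 100 CPM. Not among these 147 are miR-181c-5p, miR-181c-3p and miR-181a-2-3p, with means of 18.1, 17.5 and 27.0 CPM. Of the products that are, miR-181a-5p, miR-181b-5p and miR-181a-1-3p did not overlap between genotypes and miR-181d-5p did. An unadjusted edgeR p under 0.05 in the lower direction was found for 10 of these 147, miR-181a-5p and miR-181b-5p among them. The median log2 fold change of KO over WT was -0.43 over the 7 products and 0.03 over all 541, and -0.07 over the 147 miRNAs with a mean of at least 100 CPM. The products are few, some share hairpins and most carry near-identical sequences, so they are not 7 independent observations.

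The most abundant member was mmu-miR-181a-5p, the guide best known from T cells and neurons, ranked 31 of 541 by mean level. It had 3104, 3775 and 3637 CPM in the KO libraries, against 4473, 5182 and 4945 CPM in the WT libraries. The KO mean was 72.0% of the WT mean, and the highest KO library was below the lowest WT library. The log2 fold change was -0.47 (SE 0.14, 95% interval -0.80 to -0.14, edgeR unadjusted p = 0.0103, adjusted p = 0.694).

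Its cluster partner mmu-miR-181b-5p, ranked 52, had 1062, 1049 and 811 CPM in the KO libraries, against 1346, 1432 and 1412 CPM in the WT libraries. KO replicate 3 was the lowest of the 6 after TMM scaling, and the groups did not overlap. By library totals KO replicate 2 was lowest, with 12469 of 14385332 reads, against 9841 of 11182888 in KO replicate 3. The KO mean was 69.7% of the WT mean, and the log2 fold change was -0.52 (SE 0.16, 95% interval -0.89 to -0.15, edgeR unadjusted p = 0.0109, adjusted p = 0.694). These 2 miRNAs had ranks 4 and 5 by p among the 541.

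From the chromosome 8 cluster, mmu-miR-181d-5p had 588.5, 640.4 and 529.9 CPM in the KO libraries, against 622.7, 699.1 and 661.7 CPM in the WT libraries. The groups overlapped, with KO replicate 2 above WT replicate 1. The log2 fold change was -0.17 (SE 0.16, 95% interval -0.53 to 0.18, edgeR unadjusted p = 0.296, adjusted p = 0.791). The interval includes both no change and a difference of the size seen for miR-181a-5p.

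The scarcest guide was mmu-miR-181c-5p, with 10.5, 15.4 and 20.5 CPM in the KO libraries, against 19.5, 23.3 and 19.5 CPM in the WT libraries. KO replicate 1 was lowest and KO replicate 3 lay within the WT values. These levels rest on 154, 183 and 249 reads in KO and 298, 317 and 296 reads in WT, and the exact 95% Poisson intervals, which cover counting error alone, ran from 8.92 to 12.3 CPM in KO replicate 1 and from 18.1 to 23.2 CPM in KO replicate 3. The log2 fold change was -0.43 (SE 0.27, 95% interval -1.04 to 0.19, edgeR unadjusted p = 0.150, adjusted p = 0.761).

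**Figure D2:**
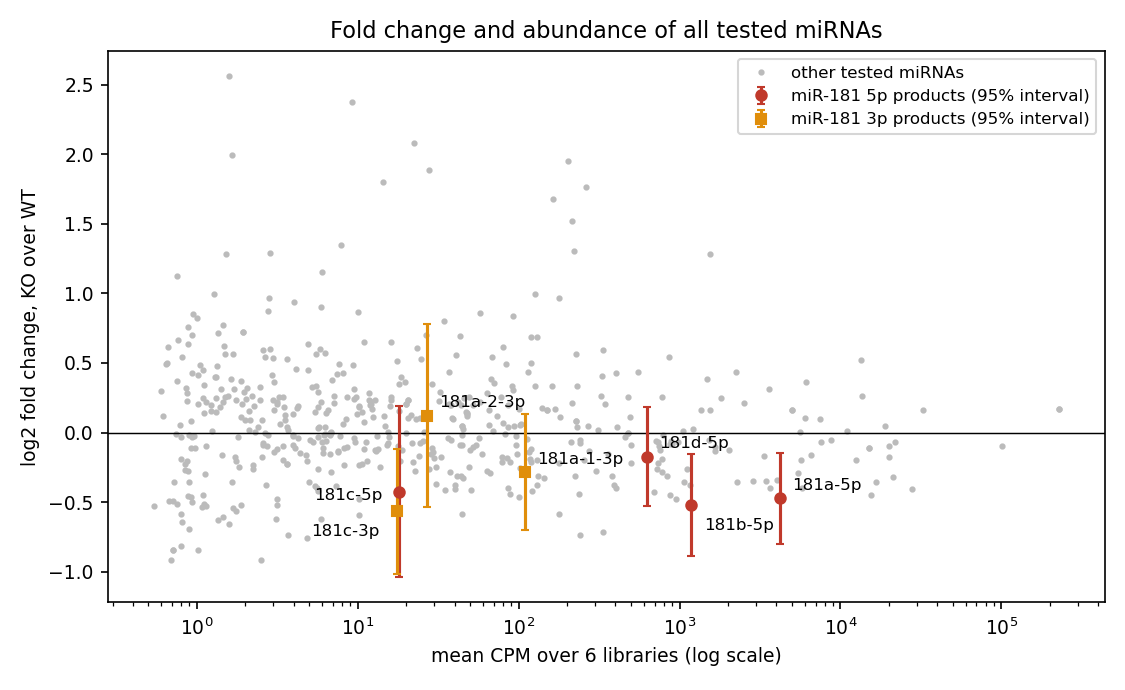
Log2 fold change of KO over WT against mean CPM (log axis) for the 541 tested miRNAs, with the 5p (circles) and 3p (squares) products of miR-181 and their 95% intervals. The intervals of miR-181a-5p, miR-181b-5p and miR-181c-3p lie below 0, and other tested miRNAs (grey) reach similar values.

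Among the 3p arms, mmu-miR-181c-3p had the largest fold change. It had 14.7, 14.3 and 13.2 CPM in the KO libraries, against 20.6, 23.2 and 18.7 CPM in the WT libraries. The groups did not overlap, and the KO libraries were close to each other after TMM scaling. By library totals the KO libraries were further apart, with 216 of 13422729, 170 of 14385332 and 160 of 11182888 reads. The KO mean was 67.5% of the WT mean, and the log2 fold change was -0.57 (SE 0.20, 95% interval -1.01 to -0.12, edgeR unadjusted p = 0.0188, adjusted p = 0.698). It came from 160 to 216 reads per library in KO and 285 to 315 in WT.

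The chromosome 1 arm mmu-miR-181a-1-3p had 104.1, 104.1 and 88.6 CPM in the KO libraries, against 128.0, 121.0 and 112.3 CPM in the WT libraries. The groups again did not overlap after TMM scaling. By library totals they did, since 1525 of 13422729 reads in KO replicate 1 is a larger share than 1708 of 15733876 in WT replicate 3. The log2 fold change was -0.28 (SE 0.18, 95% interval -0.70 to 0.13, edgeR unadjusted p = 0.157, adjusted p = 0.769).

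The chromosome 2 arm mmu-miR-181a-2-3p had 41.0, 19.4 and 23.8 CPM in the KO libraries, against 25.2, 23.3 and 29.1 CPM in the WT libraries. KO replicate 1 was the highest and KO replicate 2 the lowest of the 6. The value in KO replicate 1 rests on 601 reads, with an exact 95% Poisson interval of 37.8 to 44.4 CPM, and the highest WT library had an interval of 26.4 to 31.9 CPM. The log2 fold change was 0.12 (SE 0.29, 95% interval -0.54 to 0.78, edgeR unadjusted p = 0.685, adjusted p = 0.894), and it was -0.24 without KO replicate 1.

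Ordered by level, miR-181a-5p, miR-181b-5p, miR-181d-5p and miR-181a-1-3p were apart from each other in every library. The last 3, miR-181a-2-3p, miR-181c-5p and miR-181c-3p, were not, since the range of miR-181c-5p overlapped with those of both others in each genotype.

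**Figure D3:**
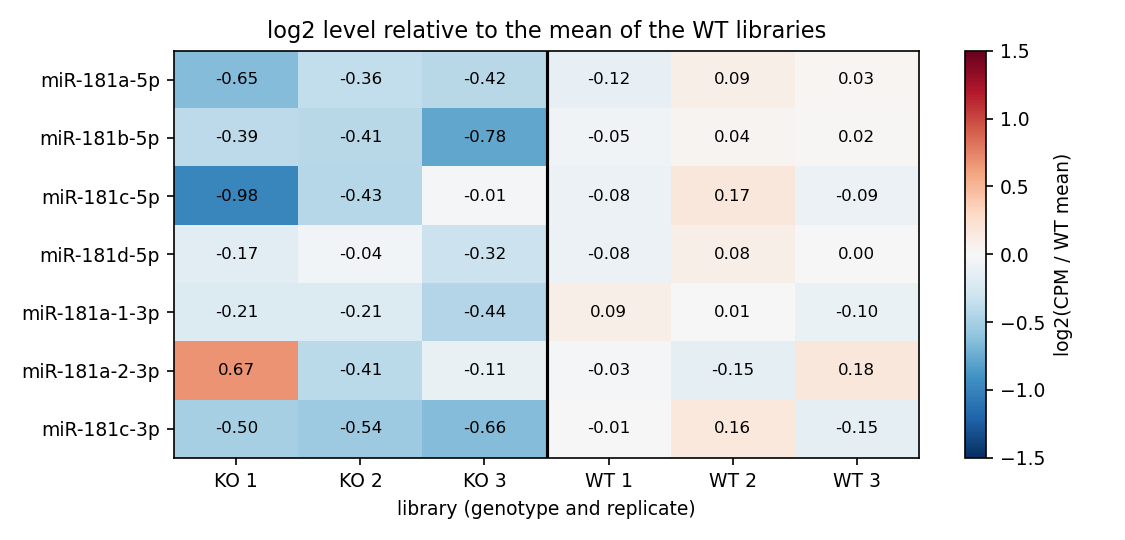
Log2 level of each product in each library relative to the mean of the WT libraries, KO libraries left of the line. KO replicate 1 is lowest for miR-181a-5p (-0.65) and miR-181c-5p (-0.98) yet highest for miR-181a-2-3p (0.67), and KO replicate 3 is lowest for miR-181b-5p (-0.78). Levels are TMM-scaled, and by library totals KO replicate 2 is lowest for miR-181a-5p and miR-181b-5p.

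The KO libraries did not stand apart from WT by a common amount over the family. Relative to the WT mean, KO replicate 1 was at -0.65 log2 units for miR-181a-5p and -0.39 for miR-181b-5p, while KO replicate 3 was at -0.42 for miR-181a-5p and -0.78 for miR-181b-5p. KO replicate 2 was at -0.36 and -0.41. This order of the KO libraries depends on the TMM scaling, since by library totals KO replicate 2 was lowest for both products. The SD of log2 CPM was larger in KO than in WT for miR-181b-5p (0.22 in KO and 0.05 in WT) and for miR-181c-5p (0.48 and 0.15), and for miR-181a-2-3p (0.55 and 0.16). By less, it was also larger in KO for miR-181a-5p (0.15 and 0.11), miR-181d-5p (0.14 and 0.08) and miR-181a-1-3p (0.13 and 0.09). For miR-181c-3p it was smaller in KO (0.08 and 0.15), which depends on the TMM scaling and does not hold by library totals. Over all tested miRNAs the median SD was 0.40 in KO and 0.14 in WT.

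The makeup of the guide pool was compared within libraries, where no scaling enters. The share of miR-181a-5p among the 4 guides was 68.9% ± 3.81 in KO and 70.0% ± 0.729 in WT, and that of miR-181b-5p 19.2% ± 3.03 in KO and 20.1% ± 0.661 in WT (mean ± SD of 3 libraries). The share of miR-181d-5p was 12.4%, 11.7% and 10.6% in the KO libraries, against 9.64%, 9.53% and 9.40% in the WT libraries, without overlap. The share of miR-181c-5p was 0.221%, 0.281% and 0.411% in the KO libraries, against 0.302%, 0.318% and 0.277% in the WT libraries.

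Set against miR-181a-5p plus miR-181b-5p, the chromosome 8 guides stood at a ratio of 0.144, 0.136 and 0.124 in the KO libraries, against 0.110, 0.109 and 0.107 in the WT libraries. All 3 KO libraries were above all 3 WT libraries. The difference of 0.30 log2 units had an exact two-sided permutation p of 0.1, the smallest that 3 against 3 libraries can give, and 0.4 when adjusted over the 4 ratios compared. Because miR-181d-5p supplies nearly all of the chromosome 8 guides, this ratio and its share above are the same observation.

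The other ratios between members overlapped between genotypes. That of miR-181b-5p to miR-181a-5p was 0.342, 0.278 and 0.223 in the KO libraries, against 0.301, 0.276 and 0.285 in the WT libraries (exact permutation p = 0.8, adjusted p = 0.8). The KO libraries lay on both sides of the WT range. That of miR-181d-5p to miR-181c-5p was 56.0, 41.6 and 25.8 in KO, against 31.9, 30.0 and 34.0 in WT (exact permutation p = 0.5, adjusted p = 0.667). The ratio of the chromosome 1 to the chromosome 2 arm, miR-181a-1-3p to miR-181a-2-3p, was 2.54, 5.36 and 3.72 in KO, against 5.07, 5.20 and 3.86 in WT (exact permutation p = 0.5, adjusted p = 0.667). In reads, 78.3% ± 6.29 of the miR-181a 3p products in KO and 82.3% ± 2.46 in WT (mean ± SD of 3 libraries) came from chromosome 1, so the chromosome 1 hairpin gave most of them in both genotypes.

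Guide and passenger arms were compared in the same way over 174 arm pairs, with limma on the log2 ratio of reads. No pair passed an adjusted p of 0.05 (0%, smallest adjusted p = 0.394), and 15 (8.62%) had an unadjusted p under 0.05, with 0 of the 3 miR-181 pairs among them. Genotypes did not overlap in 15.5% of all pairs and in 0 of the 3 miR-181 pairs. For miR-181a-5p to miR-181a-1-3p there were 29.8, 36.2 and 41.0 reads of the guide per passenger read in the KO libraries, against 34.9, 42.8 and 44.0 in the WT libraries. The difference in log2 ratio was -0.19 (SE 0.25, 95% interval -0.77 to 0.39, limma adjusted p = 0.844), and it was -0.07 without KO replicate 1 and -0.30 without KO replicate 3.

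For miR-181a-5p to miR-181a-2-3p the ratios were 75.7, 194.3 and 152.7 in the KO libraries, against 177.3, 222.7 and 170.1 in the WT libraries. KO replicate 1 stood below the others. The difference was -0.53 (SE 0.39, 95% interval -1.44 to 0.39, limma adjusted p = 0.801), and -0.13 without that library. Since miR-181a-5p comes from both hairpins, neither ratio is that of a single hairpin.

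The miR-181c hairpin gave similar numbers of reads from its 3p and its 5p arm, whereas reads of miR-181a were mostly from the 5p arm. The ratio of miR-181c-5p to miR-181c-3p was 0.713, 1.08 and 1.56 in the KO libraries, against 0.946, 1.01 and 1.04 in the WT libraries. The WT libraries were close together, and the KO libraries lay both below and above them. The difference was 0.09 log2 units (SE 0.32, 95% interval -0.68 to 0.86, limma adjusted p = 0.928).

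**Figure D4:**
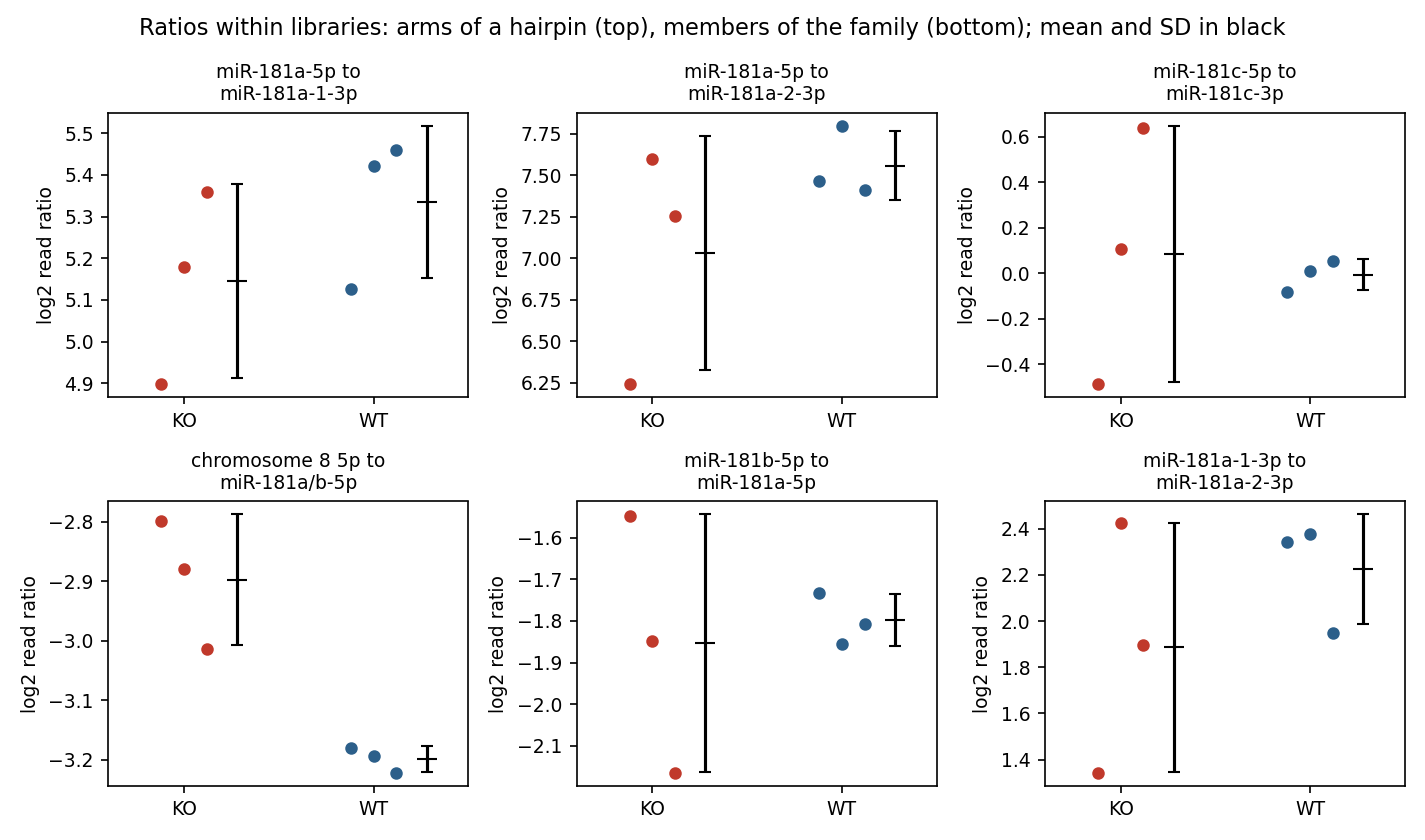
Log2 ratios of reads within libraries, KO left of WT in each panel, with libraries as points and mean and SD in black (n = 3 each). Axes do not start at 0. The top row holds 5p to 3p arm ratios, and the lower row holds ratios between members. The genotypes are apart for the chromosome 8 guides relative to miR-181a-5p plus miR-181b-5p, and overlap in the other 5 panels.

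The miRNAs outside the family whose levels over the 6 libraries were most like the summed guides were sought among 143 with a mean of at least 100 CPM. The highest Pearson r on log2 CPM was 0.97 for miR-300-3p, followed by miR-191-5p (0.91), miR-381-3p (0.89), let-7b-5p (0.89) and miR-125b-5p (0.88), and the median r was 0.19. The summed guides form separate groups by genotype, so r here reads mainly which miRNAs were also lower in KO, and the points share their libraries' scaling. In each of the 5 the genotypes did not overlap, with every KO library below every WT library, which follows largely from this choice. The same held for 28 of all 147 tested miRNAs with a mean of at least 100 CPM, miR-181 products included. Levels of miR-300-3p were 870.5, 1100.1 and 1049 CPM in the KO libraries, against 1392, 1479 and 1425.0 CPM in the WT libraries, and the log2 fold change was -0.51 (SE 0.15, edgeR adjusted p = 0.694). For miR-191-5p the KO libraries had 768.5, 718.1 and 744.1 CPM, against 969.1, 1006 and 1064 CPM in the WT libraries, with a log2 fold change of -0.45 (SE 0.14, edgeR adjusted p = 0.694). Neither passed the threshold of 0.05. Levels of let-7b-5p were 972.7, 1014 and 1044 CPM in KO, against 1235, 1163 and 1237 CPM in WT, with a log2 fold change of -0.26 (SE 0.14, edgeR adjusted p = 0.749). Levels of miR-381-3p were 2760, 3136 and 3556 CPM in the KO libraries, against 4041, 4309 and 4103 CPM in the WT libraries, and the log2 fold change was -0.40 (SE 0.15, edgeR adjusted p = 0.705). For miR-125b-5p they were 5123, 5459 and 5279 CPM in KO, against 6295, 6038 and 5824 CPM in WT, and the log2 fold change was -0.20 (SE 0.13, edgeR adjusted p = 0.769). These last 3 did not pass the threshold either.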

How the data were processed

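Small RNA from cortex was ligated to adaptors, amplified, size-selected and read from a single end, per the labels' protocols. The submitters' processing notes list Bowtie, DESeq2 and mm10 but neither versions nor roles. How reads were trimmed, which miRBase release was used and how multiply matching reads were treated is not stated in the labels. Per the file headers the authors deposited read counts per mature miRNA, used as they are, and TPM values, which equal each count over its column total. Columns were matched to samples by the number in the title, and 0 columns belonged to no sample. The labels do not tie libraries to separate animals, so p-values measure the spread between these libraries.

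Counts were tested in edgeR 4.0.16 (R 4.3.3) by the quasi-likelihood test with robust estimation, TMM scaling and filterByExpr at its minimum count of 10. Adjustment was by Benjamini-Hochberg over all tested miRNAs at a threshold of 0.05. Arm ratios were log2 ratios of reads with 0.5 added to each arm, tested in limma 3.58.1 with robust moderation over pairs of arms that both passed the filter and were matched by name. Ratios between members were compared by exact permutation. Alternatives were other scalings, no filter, DESeq2 1.42.0, limma on log2 of the deposited TPM plus 1, other arm settings, and leaving out each library. The procedure was tested on simulated counts with the same spread in both groups and with changes larger than those of the members. That simulation does not show how the tests perform under the unequal spread and smaller differences of these data. Reads are not unique molecules, so counting intervals (95%) cover counting error only. The members, lists and tests were chosen with earlier results of these data known. The text names all 7 products and the 5 miRNAs most like the summed guides.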

Additional observations from a re-analysis of the deposited data

How the results depend on the processing

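No miR-181 product passed an adjusted p of 0.05 in the main fit or in any of the 13 alternatives to it. Values of miR-181a-5p, miR-181b-5p, miR-181c-5p, miR-181d-5p, miR-181a-1-3p and miR-181c-3p were lower in KO in all 13. With a library left out, the log2 fold change ranged from -0.57 to -0.38 for miR-181a-5p, from -0.63 to -0.39 for miR-181b-5p, from -0.66 to -0.20 for miR-181c-5p, from -0.29 to -0.09 for miR-181d-5p, from -0.37 to -0.19 for miR-181a-1-3p and from -0.63 to -0.46 for miR-181c-3p. Their smallest adjusted p over the alternatives was 0.0542, for miR-181a-5p. The direction of miR-181a-2-3p turned without KO replicate 1 (range -0.24 to 0.27), and that of the miR-181c arm ratio turned without KO replicate 3 (range -0.18 to 0.38), as did that of the ratio of miR-181b-5p to miR-181a-5p (range -0.21 to 0.10, against -0.05 with all libraries). Differences in the other ratios kept their direction, with a range of -0.30 to -0.07 for miR-181a-5p to miR-181a-1-3p, -0.81 to -0.13 for miR-181a-5p to miR-181a-2-3p, 0.04 to 0.60 for miR-181d-5p to miR-181c-5p and -0.60 to -0.07 for miR-181a-1-3p to miR-181a-2-3p. The cause was not tested. The difference in the chromosome 8 ratio ranged from 0.25 to 0.36 with a library left out. The count of miRNAs past the threshold was 0 in the other fits and 18 of 560 without KO replicate 3, none of them miR-181, so it ranged from 0 to 18. The number at an unadjusted p under 0.05 ranged from 14 without WT replicate 2 to 97 without KO replicate 3, and the number of miR-181 products among them with lower values in KO ranged from 1 to 4. No arm pair passed in any setting. The replicate numbers used here follow the order of the sample titles within each genotype and do not mark pairs. No paired analysis was possible because the labels give no pairing between genotypes. Depth limits miR-181c-5p, miR-181c-3p and miR-181a-2-3p most, with 154 to 601 reads per library.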

Other observations

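The table also holds the 3p products of the miR-181b hairpins, which are not among the 7 and did not pass the filter on low counts. The chromosome 1 product, miR-181b-1-3p, had 9, 20 and 7 reads in the KO libraries, against 8, 7 and 14 reads in the WT libraries. The chromosome 2 product, miR-181b-2-3p, had 0, 1 and 0 reads in the KO libraries, against 0, 1 and 5 reads in the WT libraries, where a count of 0 allows up to 3 reads. In every library miR-181b-5p had at least 623 reads for each read of miR-181b-1-3p, whereas miR-181a-5p had 29.8 to 44.0 reads for each read of miR-181a-1-3p and 75.7 to 222.7 for each read of miR-181a-2-3p. For miR-181c the same ratio was 0.713 to 1.56. The ratios of miR-181a-5p and miR-181b-5p are not those of single hairpins, since each guide comes from 2 hairpins.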
